A study of Mus musculus with 12 samples.

Results

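The comparison set out here is between cardiomyocyte RNA of mice with a model of chronic kidney disease (CKD) and of mice with a sham operation, both given saline. Its members were the 3 CKD saline and the 3 sham saline libraries, 6 of the 12 libraries of the series, taken by their treatment labels. All genes of the table were described: 22584 were listed and 15004 had enough counts to be tested. All 6 libraries were polyA RNA of heart cells labelled cardiomyocytes, which the series' design text calls isolated, from C57BL6 mice of WT genotype, and no age is given in the labels. The CKD model consisted of uninephrectomy, which removes 1 kidney, with AngII (angiotensin II) and a diet high in salt. For the sham saline group the design text gives 12 weeks, and for the CKD saline group it gives no duration. The other 6 libraries are sham and CKD hearts given an agent named JV001, and they enter here as the same contrast in separate samples. The labels do not say that replicates were separate animals, so each p-value reflects the spread of libraries alone, and that spread may be technical. In the main fit the spread was estimated over all 12 libraries, those given JV001 included.

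AngII is the effector peptide of the renin-angiotensin system: it constricts vessels, drives aldosterone release and acts on heart muscle and fibroblasts through its type 1 receptor. Together with salt and loss of a kidney it raises blood pressure and loads the left ventricle. The known response of a loaded ventricle includes return of fetal genes such as Nppa, Nppb, Myh7 and Acta1, weaker calcium cycling, less fat oxidation, and deposition of matrix by fibroblasts. Immediate early genes such as the Egr family are switched on within minutes by stretch, hormones and handling of cells, and clock genes follow the hour at which tissue is taken.

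Rounded total counts ran from 25234000 in CKD library 3 to 36979000 in sham library 2, with slightly more in sham library 3. Expression is given as CPM, counts relative to library size after scaling by trimmed mean of M values (TMM), in the order of libraries 1, 2 and 3 of a group. A pair of libraries stood apart. On the first principal component, which held 50.7% of the variance over the 6 libraries, CKD library 3 lay at 100 and sham library 1 at 36.9, while the other libraries lay between -47.7 and -21.7. CKD library 3 was more than 2-fold above or below every other library in 799 of 12215 expressed genes, 703 of them as the highest. The same count was 25 in CKD library 1, 20 in CKD library 2, 110 in sham library 1, 106 in sham library 2 and 120 in sham library 3. CKD libraries 1 and 2 were the most alike of all pairs, with a median absolute log2 difference of 0.16 against 0.60 between CKD libraries 1 and 3. Fold changes are given without CKD library 3 or sham library 1 too where that moved them by more than 1.5 times.

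No gene passed an adjusted p of 0.05 in edgeR's quasi-likelihood test, so 0 of 15004 genes, 0%, were called. The smallest adjusted p was 0.234. At an unadjusted p under 0.05 there were 322 higher genes in CKD, 2.15% of those tested, and 421 lower genes, 2.81%. The sum of 743 is close to the 750.2 that evenly spread p-values would give. The 3 CKD libraries lay above the 3 sham libraries without overlap in 618 genes, 4.12%, and below them in 967 genes, 6.44%. On total-count scaling the split was 345 higher and 1362 lower, 2.30% and 9.08%. DESeq2, run on the same counts as an alternative, called 54 genes, 0.364% of 14839, of which 14 were higher and 40 lower in CKD; 44 of the 54 did not overlap between groups. A voom fit of limma with library quality weights called 5: Egr3 and Ptger4 as higher, and Cenpf, Pde3a and Slc40a1 as lower. Those 5 genes were also the 5 with the smallest p in edgeR among genes expressed at 1 CPM or more with no overlap, and they are described first.

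**Figure D1:**
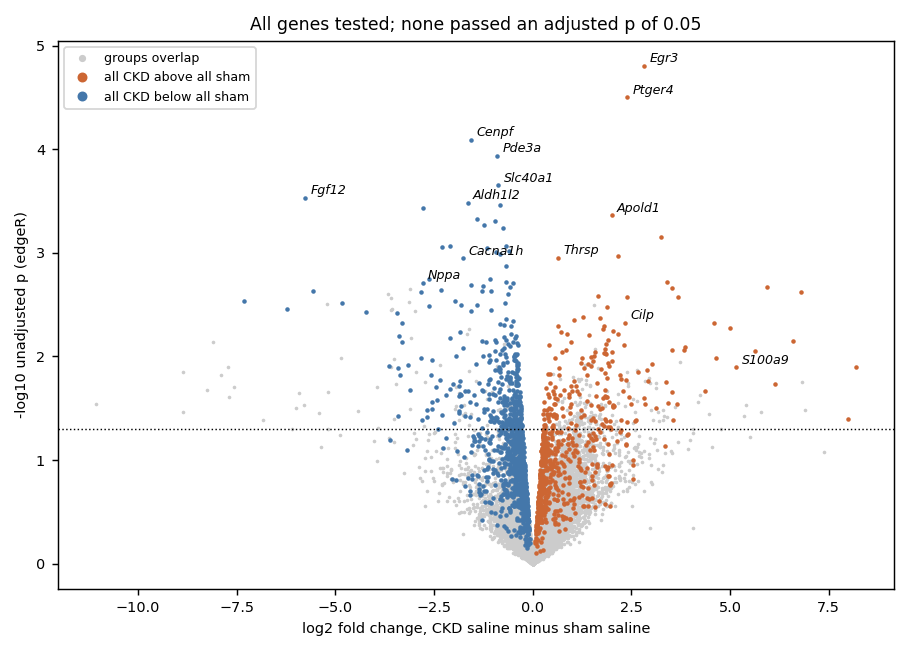
Each point is 1 of the 15004 genes tested, with the log2 fold change of CKD saline over sham saline on the x axis and the unadjusted edgeR p on the y axis as -log10; a dotted line marks the 0.05 level. Coloured points are the 618 genes higher and the 967 genes lower in CKD with no overlap of libraries; Egr3 and Ptger4 lie highest, and the smallest adjusted p was 0.234.

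Egr3, an immediate early zinc finger transcription factor, was at 1.99, 2.78 and 1.58 CPM in the sham libraries. In the CKD libraries it was at 12.6, 11.8 and 20.5 CPM. Each CKD library was above each sham library by a wide gap, and CKD library 3 was the highest. The log2 fold change was 2.82 (SE 0.39) with an edgeR adjusted p of 0.234, and it ran from 2.55 to 3.08 as each of the 6 libraries was left out.

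Ptger4 encodes the EP4 receptor for prostaglandin E2, which couples to cyclic AMP. It was at 4.34, 2.57 and 3.26 CPM in sham and at 14.3, 11.1 and 28.2 CPM in CKD. The groups did not overlap, and CKD library 3 was again the highest. The log2 fold change was 2.40 (SE 0.36; edgeR adjusted p 0.236), and 1.93 without CKD library 3. Of the other 16 tested genes of prostaglandin synthesis and reception, none separated the groups. Ptgds, a prostaglandin D synthase, was at 182, 245 and 207 CPM in sham and at 442, 446 and 217 CPM in CKD, where library 3 fell within the sham range. Ptgfr, the receptor for prostaglandin F2 alpha, was at 9.35, 1.30 and 3.89 CPM in sham and at 2.15, 1.25 and 0.556 CPM in CKD, and the groups overlapped.

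Cenpf, a large kinetochore protein that also binds microtubules, was at 24.9, 37.5 and 27.7 CPM in sham. It was at 10.7, 10.2 and 9.49 CPM in CKD. All 3 CKD libraries lay close together, below the lowest sham library, and CKD library 3 did not stand out. Its log2 fold change was -1.57 (SE 0.26; edgeR adjusted p 0.405), from -1.69 to -1.36 with single libraries left out.

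Pde3a, the phosphodiesterase that breaks down cyclic AMP at the sarcoplasmic reticulum, was at 101, 109 and 94.7 CPM in sham and at 57.5, 60.7 and 44.8 CPM in CKD. The highest CKD library was below the lowest sham library. A log2 fold change of -0.90 (SE 0.16; edgeR adjusted p 0.434) was obtained. Measured per length, Pde3a in sham was at 6.70, 7.82 and 6.97 FPKM (fragments scaled by gene length and depth) and Pde3b at 0.451, 0.639 and 0.619 FPKM, so Pde3a was the more abundant of the pair in each sham library.

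Slc40a1 encodes ferroportin, the exporter of cellular iron. It was at 18.3, 23.8 and 24.4 CPM in sham and at 12.8, 12.7 and 10.9 CPM in CKD. The groups did not overlap. Its log2 fold change was -0.87 (SE 0.16; edgeR adjusted p 0.610). Of the 20 tested genes of iron handling, 1 was higher and 2 lower without overlap, 5% and 10% against 4.12% and 6.44% of all genes. The list's median log2 fold change was -0.14 against 0.01 over all genes tested, and -0.027 without CKD library 3.

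**Figure D2:**
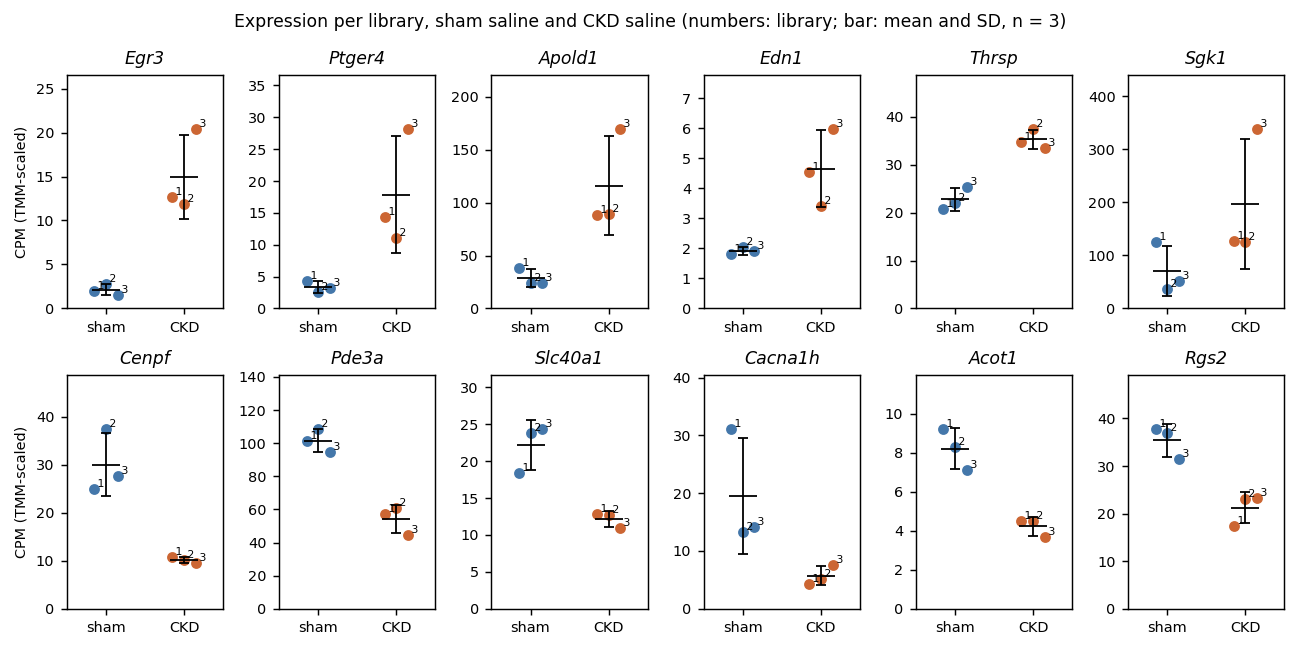
Expression in CPM (y axis, from 0) of 12 genes in the 3 sham saline (blue) and 3 CKD saline (orange) libraries, with library numbers beside the points and bars for mean and SD (n = 3). Egr3, Ptger4, Apold1, Edn1, Thrsp and Sgk1 were higher and Cenpf, Pde3a, Slc40a1, Cacna1h, Acot1 and Rgs2 lower in every CKD library; none passed the adjusted test, and CKD library 3 was the highest for all of the 6 higher genes except Thrsp.

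The next higher genes by p with the groups apart included Apold1, Thrsp, Plk3 and Edn1. Apold1, an early response gene of endothelium, was at 38.6, 23.8 and 24.4 CPM in sham and at 88.7, 89.5 and 170.0 CPM in CKD. Its log2 fold change was 2.00 (SE 0.41; edgeR adjusted p 0.617). Edn1, the vasoconstrictor peptide endothelin 1, was at 1.80, 2.04 and 1.92 CPM in sham and at 4.55, 3.43 and 5.998 CPM in CKD. Plk3, a stress-induced kinase, was at 7.42, 2.97 and 2.20 CPM against 11.6, 9.80 and 18.1 CPM. For these 3 genes CKD library 3 was the highest of the 6, and CKD libraries 1 and 2 were each above all sham libraries as well. Thrsp, a regulator of fatty acid synthesis, was at 20.8, 22.1 and 25.4 CPM in sham and at 34.8, 37.6 and 33.6 CPM in CKD, with the 3 CKD libraries close together. Its log2 fold change of 0.63 (SE 0.15) had an edgeR adjusted p of 0.675.

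The other higher genes of this rank were Tcf23, Fibin, Htra4, Lig1, Cilp and Ifi27, with log2 fold changes from 0.65 for Ifi27 to 2.38 for Tcf23. Without CKD library 3, Tcf23 was at 1.44 and Fibin at 1.20 in place of 1.88. Cilp, a matrix protein made by activated cardiac fibroblasts, was at 5.82, 4.83 and 5.0004 CPM in sham and at 9.99, 9.90 and 59.5 CPM in CKD. CKD libraries 1 and 2 were above every sham library, and library 3 was far above both. The log2 fold change of Cilp was 2.34 with all libraries and 0.96 without CKD library 3.

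The other lower genes of this rank were Fgf12, Aldh1l2, Adam11, Ndnf, Acot1, Lingo3, Klhl13, B4galt6 and Rp1. Acot1, a thioesterase that frees fatty acids from coenzyme A, was at 9.22, 8.27 and 7.12 CPM in sham and at 4.52, 4.52 and 3.65 CPM in CKD. Aldh1l2, a mitochondrial enzyme of folate metabolism, was at 11.8, 6.15 and 11.0 CPM in sham and at 3.63, 3.36 and 2.22 CPM in CKD. The log2 fold changes were -0.95 (SE 0.20; edgeR adjusted p 0.617) for Acot1 and -1.65 (SE 0.32; edgeR adjusted p 0.610) for Aldh1l2. Fgf12, an intracellular modulator of sodium channels, was at 10.6, 0.424 and 5.18 CPM in sham and at 0.0370, 0.198 and 0.0397 CPM in CKD. In the CKD libraries 3 counts equal 0.111, 0.0990 and 0.119 CPM, so Fgf12 was below that level in CKD libraries 1 and 3. Sham library 2 was far below the other sham libraries for Fgf12, a pattern that it shared with the atrial genes described further on. All 24 of these higher and lower genes kept the sign of their log2 fold change as each of the 6 libraries was left out in turn. They were chosen for lack of overlap, so leaving out 1 library could hardly change the sign, and this is no test of them.

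The fetal genes of cardiac load did not separate the groups, apart from Nppa. Nppb, encoding B-type natriuretic peptide, was at 229, 513 and 296 CPM in sham and at 347, 358 and 175 CPM in CKD. Myh7, the slow beta myosin heavy chain, was at 194, 512 and 239 CPM against 310, 303 and 78.8 CPM. Acta1, skeletal alpha actin, was at 224, 427 and 489 CPM against 636, 647 and 357 CPM. For each of these genes the ranges overlapped, with CKD libraries 1 and 2 almost equal and library 3 lower. Ankrd1, a stretch-responsive titin partner, had the same order, with 1672 and 1649 CPM in CKD libraries 1 and 2 and 698 CPM in library 3 against 617, 1411 and 1030 CPM in sham. The log2 fold changes were -0.24 (SE 0.63) for Nppb, -0.45 (SE 0.68) for Myh7, 0.52 (SE 0.57) for Acta1 and 0.39 (SE 0.62) for Ankrd1. Without CKD library 3 they were 0.048, -0.020, 0.77 and 0.72, and without sham library 1 they were -0.47, -0.71, 0.25 and 0.13. Rcan1, a target of calcineurin signalling, was at 131, 118 and 77.2 CPM in sham and at 86.7, 87.3 and 64.6 CPM in CKD. Of the 19 tested genes of the hypertrophy list, 1, Tubb6, was higher and 1, Nppa, lower without overlap, 5.26% each way against 4.12% and 6.44% of all genes. On total-count scaling 0 were higher and 3 lower, 0% and 15.8% against 2.30% and 9.08% of all genes.

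Nppa, atrial natriuretic peptide, was lower in CKD, opposite to its known direction in a loaded ventricle. It was at 2922, 356 and 1046 CPM in sham and at 238, 238 and 149.5 CPM in CKD. The sham libraries spread over a wide range, and sham library 2 was nearest to CKD. Genes of atrial muscle showed a like spread in sham. Myl7, the atrial regulatory light chain, was at 492, 12.8 and 145 CPM in sham and at 20.5, 19.8 and 10.7 CPM in CKD. Myl4, the atrial essential light chain, was at 570.0, 13.8 and 161 CPM in sham and at 25.2, 22.8 and 13.7 CPM in CKD. Sln, sarcolipin, the atrial inhibitor of the calcium pump, was at 153, 4.22 and 40.7 CPM against 6.26, 6.47 and 3.65 CPM. For Myl7, Myl4 and Sln, sham libraries 1 and 3 were high and sham library 2 lay within the CKD range. All 10 atrial markers had negative log2 fold changes, with a median of -2.48, and 3 of the 10, 30% against 6.44% of all genes, did not overlap. The summed level of the 10 markers was 6068, 1332 and 2582 CPM in sham and 1068, 1052 and 684 CPM in CKD, and the part of atrial tissue in the Nppa difference was not tested. Without sham library 1 the median was -1.65. DESeq2 called 4 of the 10 atrial markers, against 0.364% of all genes it tested. In bulk RNA, fewer cells of a type and less RNA per cell cannot be told apart.

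Sarcomere genes were lowest in CKD library 3, with CKD libraries 1 and 2 within or near the sham range for those described here. Myh6, alpha myosin heavy chain, ran from 4061 to 5883 FPKM in sham. In CKD it was at 4297, 4219 and 2518 FPKM, and CKD library 3 was the lowest of the 6. FPKM is scaled by total counts and not by TMM. The log2 fold change of Myh6 in the main fit was -0.41, and -0.15 without CKD library 3. Ttn, the giant spring protein titin, was at 3782, 4888 and 4744 CPM in sham and at 3547, 3546 and 1994 CPM in CKD. The groups for Ttn did not overlap, but the gap between CKD libraries 1 and 2 and sham library 1 was small. The log2 fold change of Ttn was -0.56 (SE 0.31) with all libraries and -0.31 without CKD library 3. Over the 23 tested sarcomere genes the median was -0.12 with all libraries and 0.13 without CKD library 3 and -0.25 without sham library 1. The 12 ventricular muscle markers summed to between 69574 and 96761 CPM in sham, to 87774 and 88359 CPM in CKD libraries 1 and 2, and to 48871 CPM in CKD library 3.

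Genes of calcium cycling were also lowest in CKD library 3. Ryr2, the calcium release channel of the sarcoplasmic reticulum, was at 1951, 2163 and 2242 CPM in sham and at 1755, 1787 and 905 CPM in CKD. Atp2a2, the calcium pump SERCA2, and Slc8a1, the sodium-calcium exchanger, overlapped between groups, with log2 fold changes of -0.38 (SE 0.33) and -0.47 (SE 0.28), which were -0.14 and -0.19 without CKD library 3. The median of the 18 calcium handling genes was -0.30, and -0.08 without CKD library 3.

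Some ion channel genes were lower in all 3 CKD libraries. Of the 29 tested, 10 were lower without overlap and 0 higher, 34.5% against the 6.44% of all genes. The median log2 fold change was -0.30, and it ran from -0.43 to -0.18 with single libraries left out. On total-count scaling 11 were lower without overlap, 37.9% against 9.08% of all genes. With DESeq2's size factors 8 were, 27.6% against 5.48%. Among the 10 lower on TMM scaling were Cacna1h, Kcnd2, Kcne1, Kcnq1, Kcnj5, Kcnk3, Gja1, Abcc8 and Abcc9. Cacna1h, a T-type calcium channel of pacemaker and fetal muscle cells, was at 31.1, 13.3 and 14.2 CPM in sham and at 4.37, 5.21 and 7.55 CPM in CKD. Kcnd2, a channel of the transient outward potassium current, was at 24.7, 23.2 and 26.3 CPM in sham and at 19.0, 15.1 and 10.2 CPM in CKD. Kcne1, an accessory subunit of the slow repolarising channel formed by Kcnq1, was at 1.96, 1.96 and 2.75 CPM against 1.22, 1.32 and 0.794 CPM. For Cacna1h the lowest value was in CKD library 1, and for Kcnd2 and Kcne1 it was in library 3. The log2 fold changes were -1.77 (SE 0.41; edgeR adjusted p 0.675) for Cacna1h, -0.75 (SE 0.25; adjusted p 0.941) for Kcnd2 and -0.996 (SE 0.38; adjusted p 0.941) for Kcne1. Kcnj3, a subunit of the acetylcholine-gated channel of atria, was at 115, 55.3 and 92.3 CPM in sham and at 50.6, 57.8 and 31.9 CPM in CKD, where sham library 2 lay between CKD libraries 1 and 2. The atrial markers, at a median of -2.48, summed to between 1332 and 6068 CPM in sham and between 684 and 1068 CPM in CKD, and their part in the ion channel values was not tested.

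Adrenergic and cyclic nucleotide genes gave 5 of 35 lower without overlap, 14.3% against 6.44% of all genes, and 0 higher against 4.12%. Besides Pde3a these were Adrb1, Adra1b, Adcy6 and Akap6. Adra1b, an alpha-1 adrenoceptor, was at 28.4, 30.0 and 35.1 CPM in sham and at 18.4, 19.6 and 15.97 CPM in CKD. Akap6, the scaffold that ties protein kinase A to the nuclear envelope and the ryanodine receptor, was at 200.01, 248 and 228 CPM in sham and at 163, 173 and 94.0 CPM in CKD. The 3 CKD libraries were below the 3 sham libraries for both. The median of the list was 0.00, close to the 0.01 of all genes, and -0.13 without CKD library 3. On total-count scaling 8 were lower without overlap, 22.9% against 9.08% of all genes.

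Of the 15 tested genes of the renin-angiotensin-aldosterone system, 1 was higher and 2 were lower without overlap, 6.67% and 13.3% against 4.12% and 6.44% of all genes, and the median log2 fold change was 0.00. Agtr1a, the type 1 receptor for AngII, was at 25.3, 46.6 and 47.7 CPM in sham and at 43.3, 41.7 and 19.5 CPM in CKD, and the groups overlapped. Ace, the converting enzyme carried by endothelium, was at 51.5, 26.1 and 18.5 CPM in sham and at 34.4, 36.7 and 136 CPM in CKD, high only in library 3. Nr3c2, the mineralocorticoid receptor, had a log2 fold change of -0.30 (SE 0.19), and -0.18 without CKD library 3. Rgs2, which shortens signalling of Gq-coupled receptors such as that of AngII, was at 37.8, 37.0 and 31.4 CPM in sham and at 17.4, 23.2 and 23.2 CPM in CKD. Every CKD library was below every sham library for Rgs2, and its log2 fold change was -0.74 (SE 0.21; edgeR adjusted p 0.935). Lnpep, an aminopeptidase that binds angiotensin IV, was at 41.2, 56.8 and 48.5 CPM against 37.9, 40.8 and 27.4 CPM.

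Sgk1, a kinase induced by aldosterone and glucocorticoids, was at 125, 37.6 and 51.0 CPM in sham and at 127, 126 and 339 CPM in CKD. Sham library 1 was level with CKD libraries 1 and 2, the other sham libraries were lower, and CKD library 3 was the highest. For Sgk1 the log2 fold change was 1.47 (SE 0.49; edgeR adjusted p 0.941), and it was 0.86 without CKD library 3 and 2.16 without sham library 1. Tsc22d3, another glucocorticoid target, was high in CKD library 3 alone, at 59.9, 57.6 and 176 CPM in CKD against 69.3, 48.2 and 59.4 CPM in sham. Fkbp5 overlapped between groups at a log2 fold change of 0.74 (SE 0.84), and 0.39 without CKD library 3. Of the 16 genes of this list, 4 were higher without overlap, 25% against 4.12% of all genes. On total-count scaling 2 were higher and 1 lower, 12.5% and 6.25% against 2.30% and 9.08% of all genes. The median of 0.56 was 0.10 without CKD library 3.

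Immediate early genes gave 6 of 26 higher without overlap, 23.1% against 4.12% of all genes, and 0 lower. They were Egr3, Egr1, Dusp1, Nr4a1, Btg2 and Arc. Egr1 was at 368, 459 and 265 CPM in sham and at 511, 520 and 639 CPM in CKD. Dusp1, the phosphatase that ends MAP kinase signals, was at 258, 273 and 233 CPM against 295, 297 and 531 CPM. Klf2, a flow-responsive factor of endothelium, was at 121, 55.0 and 52.9 CPM in sham and at 104, 113 and 371 CPM in CKD, and the groups overlapped. CKD library 3 was the highest for Egr1, Dusp1 and Klf2. The median of the list was 0.34, and 0.20 without CKD library 3. On total-count scaling 3 of the 26 were higher without overlap, 11.5% against 2.30% of all genes.

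Genes of fuel use had slightly negative medians, and CKD library 3 was the lowest for several of them. The citric acid cycle list was negative in all 18 members, with a median of -0.18, and no member separated the groups. Cs, citrate synthase, was at 1183, 1638 and 1529 CPM in sham and at 1307, 1320 and 748 CPM in CKD. Without CKD library 3 the median of that list was 0.07, that of the 30 fatty acid oxidation genes moved from -0.18 to 0.06, and that of the 43 nuclear respiratory chain genes from -0.07 to 0.17. Without sham library 1 the medians were -0.28, -0.32 and -0.15. Lpl, the lipoprotein lipase, Cpt1a, the gate of mitochondrial fat import, and Pdk4, the brake on pyruvate oxidation, overlapped between groups, with log2 fold changes of -0.38 (SE 0.24), -0.24 (SE 0.17) and -0.17 (SE 0.48). Lpl was at -0.18 and Pdk4 at 0.063 without CKD library 3, and Cpt1a was at -0.39 and Pdk4 at 0.020 without sham library 1. Ppargc1a, the coactivator of mitochondrial biogenesis, was at 100.2, 97.2 and 80.6 CPM in sham and at 74.5, 79.5 and 39.4 CPM in CKD. Its groups did not overlap, with a narrow gap between sham library 3 and CKD library 2. Esrrg, a nuclear receptor that works with it, was at 33.5, 46.3 and 43.2 CPM against 32.1, 32.5 and 15.8 CPM.

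Transcripts of the mitochondrial genome were higher in CKD in all 13 tested genes, with a median log2 fold change of 0.57. They took 34.7%, 18.8% and 19.5% of counts in sham and 29.3%, 31.0% and 38.5% in CKD. Sham library 1 was within the CKD range, and sham libraries 2 and 3 were low. COX2, a subunit of cytochrome oxidase, was the gene of this list that did not overlap, at 2963, 697 and 1710 CPM in sham and at 3120, 3219 and 5749 CPM in CKD. ATP6, of the ATP synthase, was at 725, 2098 and 2219 CPM in CKD against 830, 383 and 507 CPM in sham. Without sham library 1 the median was 0.98. These genes have near-identical nuclear copies, so single values are uncertain.

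Cytosolic ribosomal protein genes showed the most even small difference on TMM scaling. All 38 had positive log2 fold changes, from 0.04 to 0.31 with a median of 0.17, and 26 of them, 68.4% against 4.12% of all genes, did not overlap. Rpl34 was at 52.2, 47.2 and 45.4 CPM in sham and at 56.8, 58.9 and 57.8 CPM in CKD. Rps16 was at 87.2, 73.2 and 75.3 CPM against 88.4, 87.9 and 112 CPM. The 3 CKD libraries lay within a narrow range for Rpl34, and library 3 was the highest for Rps16. The median was 0.21 without CKD library 3 and 0.16 without sham library 1. The count depended on scaling: 27 were higher without overlap with DESeq2's size factors, 71.1% against 4.69% of all genes. On total counts 4 were, 10.5% against 2.30%, and the median was 0.08. Ribosomal protein genes have many processed copies, and reads shared with those make single values uncertain.

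**Figure D3:**
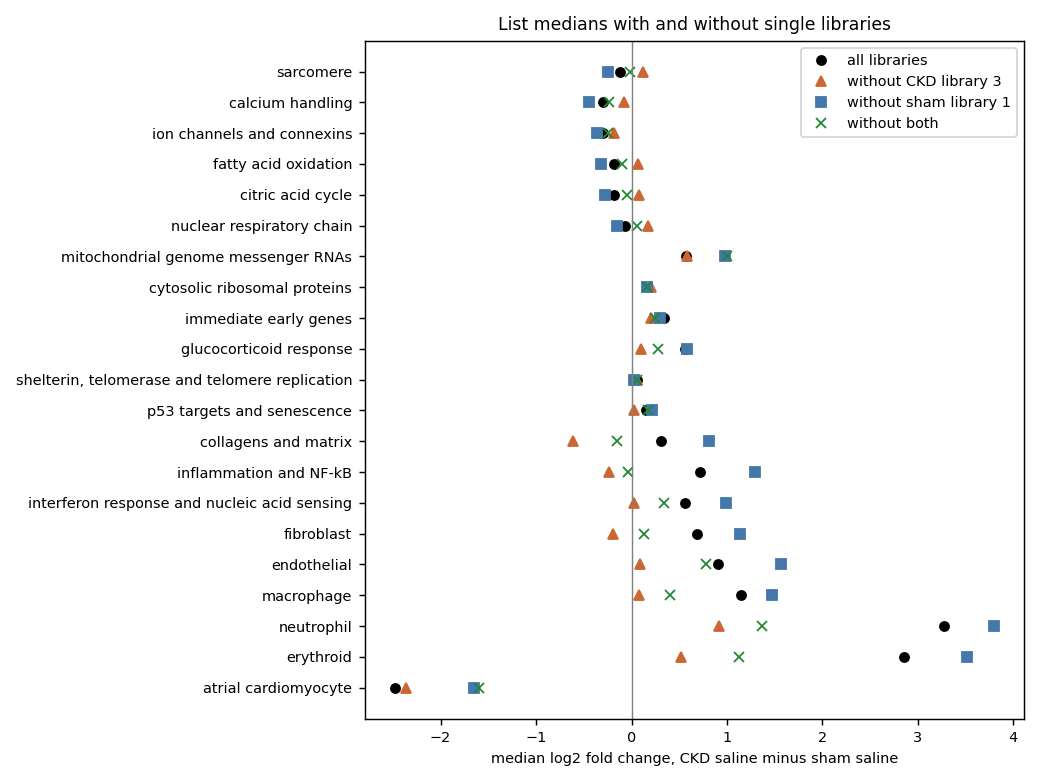
Median log2 fold change of CKD saline over sham saline (x axis) for 21 gene lists (rows), from all libraries (circles), without CKD library 3 (triangles), without sham library 1 (squares) and without both (crosses). Without CKD library 3, collagen, inflammation and fibroblast medians turned negative. Those of sarcomere, fatty acid oxidation, citric acid cycle and nuclear respiratory chain genes turned positive without it. The other lists shown kept their side of 0 in all 4, ribosomal protein, ion channel and mitochondrial genome lists among them.

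The fibrosis genes named in this paragraph did not separate the groups. Col1a1, of type I collagen, was at 54.0, 28.6 and 15.6 CPM in sham and at 15.6, 17.2 and 76.3 CPM in CKD. Col3a1, of type III collagen, was at 130.5, 57.6 and 32.4 CPM against 24.5, 25.6 and 121 CPM. CKD libraries 1 and 2 were below the lowest sham value for Col3a1 and near it for Col1a1. For both genes CKD library 3 was at the level of sham library 1 or above it. Postn, periostin of activated fibroblasts, was at 17.0, 12.4 and 9.28 CPM in sham and at 12.4, 11.0 and 49.7 CPM in CKD. The log2 fold changes were 0.15 (SE 0.61) for Col1a1, -0.37 (SE 0.63) for Col3a1 and 0.92 (SE 0.49) for Postn, and without CKD library 3 they were -0.97, -1.52 and -0.11. Without sham library 1 they were 0.72, 0.35 and 1.17. Ccn2, a matricellular target of TGF-beta, was at 235, 125 and 82.9 CPM in sham and at 114, 111 and 110 CPM in CKD. Timp1, an inhibitor of matrix proteases, was at 0.964, 0.743 and 0.622 CPM against 0.888, 1.06 and 2.38 CPM. Spp1, osteopontin, had 1, 9 and 1 counts in sham and 0, 1 and 28 counts in CKD.

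Some matrix genes were above sham in CKD libraries 1 and 2 as well. Mfap5, a microfibril protein, was at 4.92, 4.03 and 3.26 CPM in sham and at 6.74, 5.74 and 23.3 CPM in CKD. Ltbp2, a fibrillin-binding protein, was at 3.28, 2.04 and 2.05 CPM in sham and at 3.85, 3.69 and 13.0 CPM in CKD. Together with Cilp these were the matrix genes that were higher without overlap, 1 of 32 in the collagen and matrix list and 2 of 23 in the matricellular list. Shares of 3.13% and 8.70% stand against 4.12% of all genes. In each list 1 gene was lower without overlap, 3.13% and 4.35% against 6.44% of all genes. The summed level of the 14 fibroblast markers was 1419, 937 and 403 CPM in sham and 778, 807 and 2972 CPM in CKD, and its part in the matrix values was not tested.

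Endothelial, blood and immune markers were high in CKD library 3. The 14 endothelial markers summed to 2671, 776 and 1089 CPM in sham and to 1696, 1654 and 5423 CPM in CKD. Cldn5, a tight junction protein of endothelium, was at 34.3, 9.36 and 7.25 CPM in sham and at 31.5, 32.2 and 76.1 CPM in CKD, and Aqp1, a water channel of capillaries, at 492, 152 and 190.4 CPM against 391, 387 and 1032 CPM. For both, sham library 1 was at or above CKD libraries 1 and 2, and sham libraries 2 and 3 were lower. The 14 macrophage markers summed to 110.4, 91.0 and 31.4 CPM in sham and to 81.1, 74.8 and 382 CPM in CKD. The 7 tested erythroid markers summed to 68.9, 50.9 and 26.8 CPM in sham and to 65.7, 69.9 and 687 CPM in CKD. Of 13 neutrophil markers found, 10 had enough counts to be tested, and low ones could pass that filter through the libraries where they were high. Sham values were near the floor for some: S100a8 was at 0.289, 0.0265 and 0.181 CPM, where 3 counts equal 0.0964, 0.0796 and 0.0777 CPM. Of the 10 tested neutrophil markers, 5 were higher without overlap, 50% against 4.12% of all genes. Given that filter, the share is a description and no test. On total-count scaling 3 were, 30% against 2.30%. The 10 summed to 63.6, 2.76 and 2.90 CPM in sham, where Ltf alone was at 58.4 CPM in library 1. In CKD they summed to 7.63, 8.94 and 88.6 CPM. Their median log2 fold change was 3.28, and 0.92 without CKD library 3. None of the markers in the 13 cell type lists was at 0 in all 6 libraries. Apart from library 3, the CKD sums for macrophages and erythroid cells lay within or just above the sham range. Levels of Egr3, Ptger4 and Apold1, which vessel and immune cells also express, were highest in the same library, and the part of these cells in those values was not tested.

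The genes that set CKD library 3 farthest from the other 5 were led by S100a9, S100a8, Csf3r, Alas2 and Hba-a2. S100a9, a calcium-binding protein of neutrophils, was at 32.7 CPM in CKD library 3, and at 1.18 and 2.08 CPM in CKD libraries 1 and 2. In sham it was at 0.836, 0.133 and 0.0777 CPM. Csf3r, the receptor for granulocyte colony-stimulating factor, was at 17.6 CPM in CKD library 3 and between 0.311 and 1.22 CPM elsewhere. Alas2, the heme synthesis enzyme of red cell precursors, was at 27.1 CPM in CKD library 3 and between 0.592 and 2.06 CPM elsewhere. S100a9 was also higher in CKD libraries 1 and 2 than in any sham library, which was not so for Csf3r or Alas2. Sham library 3 had the largest number of such genes within its group, and was the lowest of the 6 for Ifitm1, Eif3j2, Cd53, Dpp7 and Clec10a. Cd53 and Clec10a, genes of leukocytes and of dendritic cells and macrophages, were at 0.0518 and 0.0259 CPM there, against 0.777 and 0.481 CPM in the next lowest library. In sham library 3 both were below 0.0777 CPM, the level of 3 counts. Eif3j2 is a near-identical copy of another gene, so its count is uncertain.

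Inflammatory and interferon genes were for the most part positive without separation. Il1b, the cytokine interleukin 1 beta, was at 3.44, 2.02 and 0.285 CPM in sham and at 1.52, 2.18 and 23.2 CPM in CKD. Cxcl12, a chemokine of stroma and endothelium, was at 259, 66.8 and 135 CPM against 157, 148 and 591 CPM. Rsad2, an antiviral interferon target, was at 12.5, 6.87 and 6.81 CPM in sham and at 8.77, 10.4 and 35.8 CPM in CKD. H2-Aa, a chain of class II major histocompatibility molecules, had a log2 fold change of 1.07 (SE 0.65), and 0.13 without CKD library 3. Of the 30 genes of inflammation and NF-kB, 2 were higher without overlap, 6.67% against 4.12% of all genes. Of the 29 interferon genes 4 were, 13.8%, namely Ifit1, Ifit3, Usp18 and Zbp1. The medians of 0.72 and 0.56 were -0.23 and 0.03 without CKD library 3, and 1.29 and 0.99 without sham library 1. Ifi27, a mitochondrial interferon target, was higher in every CKD library, at 26.6, 28.4 and 33.7 CPM against 22.3, 19.7 and 14.7 CPM.

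**Figure D4:**
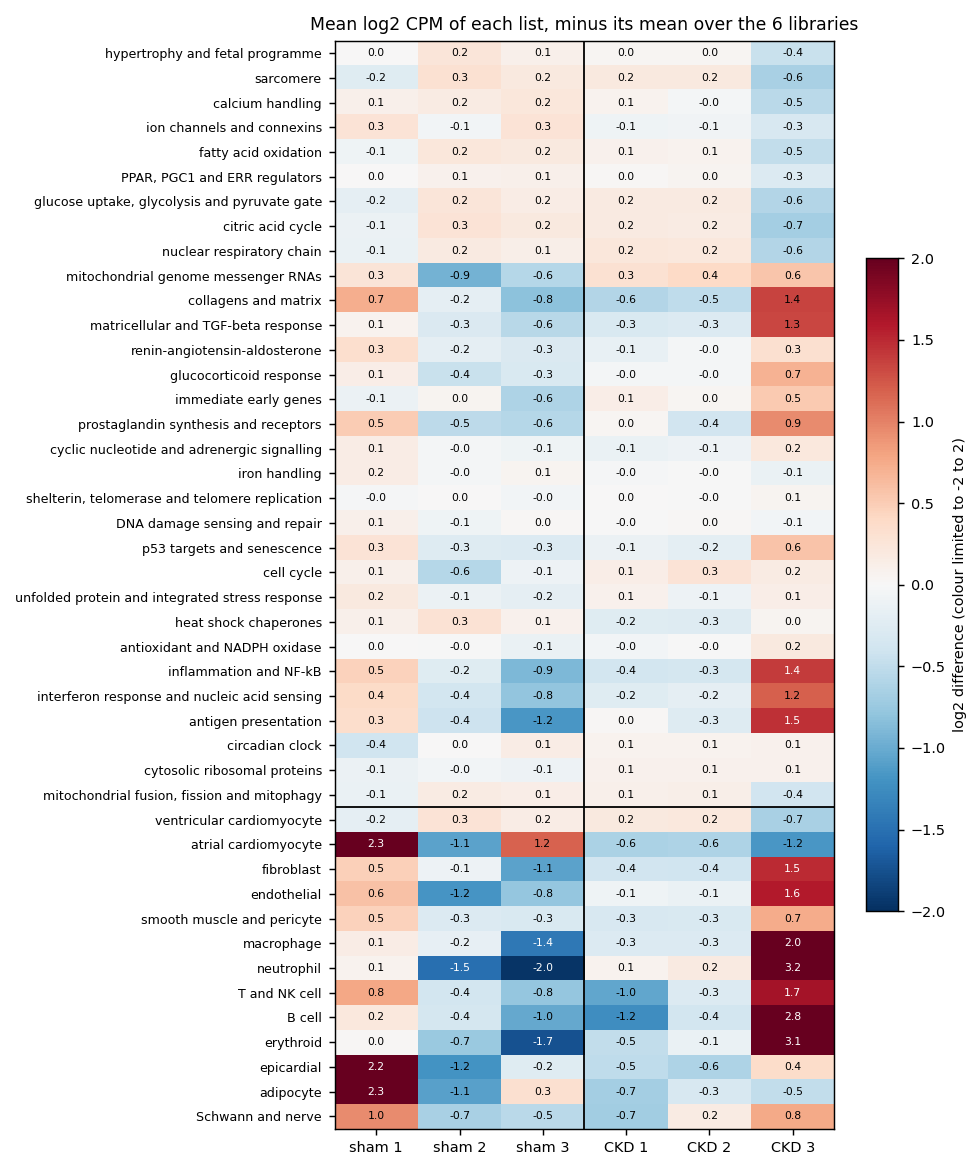
Mean log2 CPM of 31 pathway lists and 13 cell type lists (rows, divided by the line) in each of the 6 libraries (columns), as the difference from the list's mean over the 6, with colour limited to -2 and 2. CKD library 3 was high for immune, blood, endothelial and matrix lists and low for muscle and fuel lists, sham library 1 was high for atrial, epicardial and adipocyte lists, and CKD libraries 1 and 2 were alike.

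The series is named for telomere recapping. Genes of telomere upkeep showed small differences in both directions. Of the 22 tested genes for shelterin, telomerase and telomere replication, 1 was higher and 2 lower without overlap. These shares of 4.55% and 9.09% stand against 4.12% and 6.44% of all genes. At an unadjusted edgeR p under 0.05 there were 0 of the 22, against 2.15% higher and 2.81% lower over all genes. The median log2 fold change was 0.06, and 0.03 without sham library 1. Terf1, which binds telomere repeats within shelterin, was at 3.63, 2.94 and 2.02 CPM in sham and at 3.07, 2.24 and 5.20 CPM in CKD. Terf2, the shelterin protein that guards chromosome ends from fusion, was at 11.9, 12.3 and 13.0 CPM against 11.7, 11.6 and 11.8 CPM. The 3 CKD values of Terf2 were just below the 3 sham values, with a log2 fold change of -0.08 (SE 0.14). Ctc1, of the CST complex that completes the lagging telomere strand, was at 14.9, 16.6 and 16.8 CPM in sham and at 14.4, 12.4 and 9.73 CPM in CKD. Parn, a ribonuclease that matures the telomerase RNA, was at 11.9, 11.8 and 12.9 CPM against 14.0, 14.1 and 16.1 CPM. Tert, which encodes the reverse transcriptase of telomerase, had 3, 1 and 4 counts in sham and 0, 0 and 3 in CKD, too few to test; a count of 0 allows up to 3 counts. At such counts a difference in Tert was not detectable at this depth.

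Damage and senescence genes were mixed. Atm, the kinase that senses double-strand breaks, was at 15.5, 15.4 and 14.6 CPM in sham and at 10.8, 12.4 and 11.8 CPM in CKD. All CKD libraries were below all sham libraries, at a log2 fold change of -0.38 (SE 0.14; edgeR adjusted p 0.941). Of the 22 tested genes of DNA damage sensing and repair, 0 were higher and 2 lower without overlap. These shares of 0% and 9.09% stand against 4.12% and 6.44% of all genes. Cdkn1a, the p53 target p21, was at 67.9, 17.2 and 8.19 CPM in sham and at 21.0, 16.9 and 100 CPM in CKD, and the groups overlapped. Cdkn2a, which encodes p16, had 8, 0 and 0 counts in sham and 0, 1 and 13 in CKD. Gdf15, a stress cytokine, had a log2 fold change of 0.21 (SE 0.53), and 0.47 without CKD library 3. Of the 27 p53 target and senescence genes, 0 were higher and 1 lower without overlap, 0% and 3.70% against 4.12% and 6.44% of all genes.

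Of the 33 tested cell cycle genes, 5 were higher without overlap, 15.2% against 4.12% of all genes, and 1, Cenpf, was lower, 3.03% against 6.44%. The 5 included Mcm2, Mcm5 and Pcna, which act in DNA replication. Mcm2, a subunit of the replicative helicase, was at 7.26, 7.88 and 8.01 CPM in sham and at 12.4, 9.76 and 12.0 CPM in CKD. Mcm5, another subunit, was at 2.76, 1.91 and 3.19 CPM against 6.26, 4.52 and 5.40 CPM. Pcna, the sliding clamp, was at 26.5, 23.7 and 26.9 CPM against 33.3, 32.6 and 30.5 CPM. CKD library 3 was not the highest for any of the 3. Lig1, the ligase that joins lagging-strand fragments, was at 1.93, 1.78 and 1.92 CPM in sham and at 2.59, 3.46 and 5.68 CPM in CKD. The log2 fold changes were 0.56 (SE 0.18) for Mcm2, 1.04 (SE 0.37) for Mcm5, 0.32 (SE 0.18) for Pcna and 1.06 (SE 0.30) for Lig1, with edgeR adjusted p from 0.911 to 0.941.

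Clock genes differed among the sham libraries. The E-box CACGTG is the site that CLOCK and BMAL1 bind, and windows around it in 4 promoters of the clock list are shown because their genes can be read against Arntl, which encodes BMAL1. Of the 19 clock genes, 16 had a promoter in the RefSeq table (GRCm38.p6, 250 bases before to 50 after the start), and 5 of these genes held at least 1 E-box. Counted by promoter, 6 of their 21 held it, against 7.15% of the 32851 promoters of the table. The site reads the same on both strands. Capitals mark it in these windows, given 5′ to 3′ on the gene's strand:
Ciart, chr3:95882255-95882356, minus strand: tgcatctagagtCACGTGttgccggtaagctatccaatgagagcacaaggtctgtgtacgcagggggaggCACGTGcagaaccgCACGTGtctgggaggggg
Tef, chr15:81802534-81802563, plus strand: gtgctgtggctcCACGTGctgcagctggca
Bhlhe41, chr6:145865556-145865585, minus strand: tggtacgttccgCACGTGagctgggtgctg
Per1, chr11:69098771-69098800, plus strand: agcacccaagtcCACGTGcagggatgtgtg
The Ciart window held 3 E-boxes, and the other 3 windows held 1 each. The fifth gene with a match was Cry1, and Tef had 1 more match in its other promoter; those windows are not printed. A match describes the letters only and is not evidence of binding.

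Ciart, a repressor of CLOCK and BMAL1, was at 2.06, 9.20 and 29.9 CPM in sham and at 21.1, 20.7 and 10.4 CPM in CKD. Tef, a PAR-type leucine zipper factor, was at 65.4, 148 and 203 CPM against 195, 186 and 139 CPM. Bhlhe41, a repressor of the E-box, was at 9.87, 27.4 and 38.4 CPM against 34.6, 34.2 and 18.5 CPM. For these 3 genes sham library 1 was the lowest, sham library 3 the highest, and sham library 2 lay between. Arntl ran the other way, at 28.8, 7.85 and 1.45 CPM in sham and at 1.15, 1.72 and 6.79 CPM in CKD. Dbp, whose window in the table has no E-box match, was at 7.91, 46.0 and 140 CPM in sham and at 131, 126 and 74.7 CPM in CKD. CKD libraries 1 and 2 were close to sham library 3 for Tef, Bhlhe41 and Dbp. Per1, which glucocorticoids also induce, had another order: it was at 70.5, 60.8 and 86.5 CPM in sham and at 108, 105 and 161 CPM in CKD, with no overlap. The log2 fold changes were 0.78 (SE 0.29; edgeR adjusted p 0.941) for Per1 and -1.98 (SE 0.87; adjusted p 0.941) for Arntl. Without sham library 1 the value of Arntl was -0.53, and without CKD library 3 it was -3.10. The labels give no hour of collection.

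Sham library 1 also held transcripts of airway epithelium, found after its values were seen. Bpifa1, a secreted protein of the upper airway, had 23126 counts in sham library 1, 0 in sham libraries 2 and 3, and 83, 102 and 0 in the CKD libraries. Scgb1a1, secretoglobin of club cells, had 9487 counts in sham library 1, 0 in the other 2 sham libraries, and 17, 24 and 0 in CKD. Both were present in 8 of the 12 libraries, since 5 of the 6 JV001 libraries had from 209 to 2224 counts of each. Ltf, lactoferrin of neutrophils and gland epithelium, was at 58.4 CPM in sham library 1 and under 1.30 CPM in the other 5.

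The same contrast in the JV001 libraries shares no sample with the saline libraries. The p-values of both contrasts still rest on 1 estimate of the spread over all 12 libraries. Of the 322 genes higher at an unadjusted p under 0.05, 298 had a positive log2 fold change there, 92.5% against 73.0% of all genes that were positive in saline. Of the 421 lower genes, 356 were negative there, 84.6% against 72.0%. All 24 leading genes had the same sign in both contrasts. The interaction of CKD with JV001 gave 0 calls, with a smallest edgeR adjusted p of 0.840, so no difference between the contrasts was detectable for any gene.

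Cenpf was 1 of the 3 genes called in the JV001 libraries, where its log2 fold change was -2.08 (edgeR adjusted p 0.0353), with Tmem100 and Tmem82. Pde3a was at -0.94 there against -0.90 in saline, and Slc40a1 at -1.10 against -0.87. Acot1 was at -0.94 against -0.95, and Aldh1l2 at -1.57 against -1.65. Ptger4 was at 2.00 against 2.40. The unadjusted interaction p of these 4 genes and Aldh1l2 lay between 0.335 for Slc40a1 and 0.949 for Acot1. Egr3 was at 0.70 there against 2.82 in saline, and Thrsp at 0.07 against 0.63. The unadjusted interaction p was 0.00191 for Egr3 and 0.0183 for Thrsp, and neither passed adjustment over all genes. Both were named for a small p in saline, which favours a larger value there. Tmem100 and Tmem82 had log2 fold changes of -0.28 and -0.39 in saline, with Tmem100 at -0.14 without CKD library 3, where Tmem82 was at 16.04, 18.3 and 17.96 CPM in sham and 13.4, 14.1 and 12.4 CPM in CKD.

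**Figure D5:**
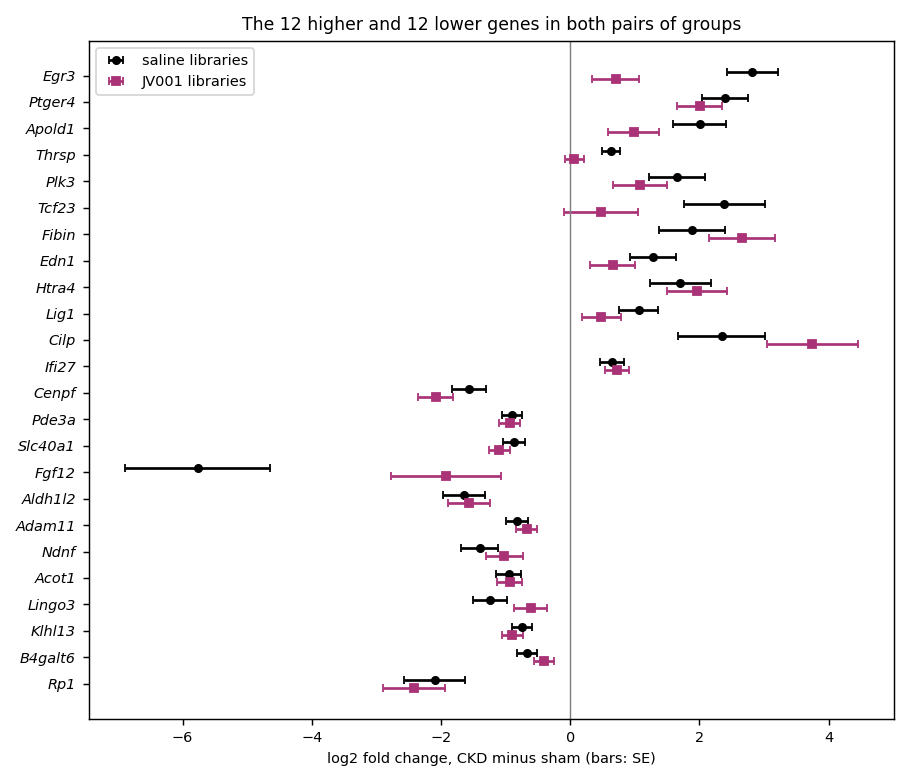
Log2 fold change of CKD over sham (x axis) with its SE (bars) for the 12 higher and 12 lower leading genes (rows), in the saline libraries (black circles) and in the JV001 libraries (purple squares). All 24 genes lie on the same side of 0 in both. Among those nearer to 0 with JV001 are Egr3, Thrsp, Tcf23, Fgf12, Apold1, Edn1, Plk3, Lig1 and Lingo3. Others, such as Fibin, Cilp and Cenpf, lie farther from 0, with Cenpf at -1.57 and -2.08. The 24 were chosen by their p in saline, so values nearer to 0 with JV001 are no test of a difference.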

How the data were processed

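The authors deposited raw counts of reads per gene symbol and FPKM values. Per the submitters' processing notes, fastp, HISAT2, HTSeq and the build GRCm39 were used; versions, annotation, counting mode and strandedness were not given in the sources used here. FPKM as deposited came from the same counts: of 10249 genes with at least 50 counts in every library, 100% gave 1 length per gene at a relative tolerance of 0.001. Columns were matched to labels by group letters and number, with C read as CKD. Without a strand setting, overlapping and antisense genes cannot be told apart.

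The test was edgeR 4.0.16 (R 4.3.3): TMM scaling, filterByExpr with a minimum count of 10, quasi-likelihood F test, 1 fit of 4 group means over the 12 libraries, and Benjamini-Hochberg adjustment over 15004 genes, threshold 0.05. SE are of log2 fold changes. The test was also run on simulated counts with known fold changes. Those counts held no shift of a single library such as that of CKD library 3, so they are no check of its effect. CPM are TMM-scaled, and error bars in figures (matplotlib 3.10.9) are SD over 3 libraries, or SE of a log2 fold change where so captioned. Alternatives used DESeq2 1.42.0, limma 3.58.1, other filters, other scalings and left-out libraries. Replicates of each group differed by more than sampling noise. Limits from counts of 0 cover counting error only.

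The comparison, its 44 gene lists and the rules for names were chosen with earlier results of these data known, so their counts are descriptions and no list was tested. Named were genes called by the test; the 12 higher and 12 lower genes with the smallest p, at least 1 CPM and no overlap, without predicted-gene names; up to 4 per list by p; a fixed set of heart, matrix, renin-angiotensin, telomere and senescence genes; and 5 genes each for the library with most genes more than 2-fold apart. Other names in non-overlap counts and the airway genes were chosen after their values were seen. Of 870 list symbols, 861 were found. Promoters were copied from RefSeq on GRCm38.p6, another build than the authors', and serve for sequence only.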

Additional observations from a re-analysis of the deposited data

How the results depend on the processing

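With edgeR the count of called genes stayed at 0 under other size factors, no filter, a stricter filter, a robust spread, the 2 groups alone, each left-out library, and without mitochondrial genome and haemoglobin genes, and limma on log2 FPKM also called 0. DESeq2 called 54 and voom with quality weights 5. The count at an unadjusted p under 0.05 was 743; it was 1721 with voom, 469 with the 2 groups alone, 1128 without library 3 of the CKD group given JV001 (chosen after seeing the data), and 494 to 1409 as single libraries were left out, highest without sham library 1 (1409), and lowest without sham library 3 (494) or 2 (495). Correlations of same-numbered deviations were -0.38, 0.18 and -0.39. With 3 libraries a group they cannot settle whether replicate numbers pair the samples. With the replicate block there were 0 calls and 575 genes at an unadjusted p under 0.05.

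Of 143 named genes, 118 kept their sign under all 19 settings and 25 did not, and the cause was not tested. The 118 include genes chosen for lack of overlap, whose sign could hardly change with 1 library left out. Log2 fold changes with single libraries left out ran from -0.47 to 0.18 for Nppb, -0.73 to 0.11 for Myh7, -0.40 to 0.063 for Pdk4, -0.41 to 0.020 for Ndufs1, -0.97 to 0.72 for Col1a1, -1.52 to 0.35 for Col3a1, -0.11 to 1.28 for Postn, -0.66 to 0.10 for Ccn2, -2.29 to 3.54 for Spp1, -0.44 to 0.11 for Agtr1a, -0.081 to 0.54 for Terf1, -0.68 to 1.86 for Cdkn1a, -1.99 to 5.60 for Cdkn2a, -0.083 to 0.71 for Gdf15, -0.18 to 3.28 for Alas2, -4.97 to 3.24 for Ltf, -2.99 to 0.98 for Krt8, -0.17 to 1.64 for Ciart, -0.017 to 0.72 for Tef, -0.18 to 0.66 for Bhlhe41, -0.29 to 0.74 for Eif3j2, -0.10 to 2.10 for Cd53, -0.23 to 1.53 for Dpp7, -0.60 to 1.63 for Clec10a and -0.0055 to 2.96 for Il1b. With CKD library 3 and sham library 1 both left out, Pdk4 was at 0.23, Col1a1 at -0.43, Ccn2 at 0.11, Spp1 at -2.69, Ltf at 3.27, Krt8 at 1.27 and Clec10a at -0.32. With voom, Pdk4 was at 0.23, Col1a1 at -0.40, Spp1 at -1.18, Ltf at 3.05 and Krt8 at 0.61. On FPKM, Col1a1 was at -0.10 and -0.16 with pseudocounts of 1 and 0.1. Of 44 list medians, 18 changed sign without CKD library 3 and 6 without sham library 1. With 3 libraries a group and this spread, small differences in low genes are not detectable.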
